A study of Mus musculus with 6 samples.

Results

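A set of 44 genes of the WNT pathway was examined in D4M-3A cells, a mouse melanoma line, after disruption of Nfkbiz, which encodes the nuclear NF-κB co-regulator IκBζ. They were chosen by name among the 43043 genes listed, as the 19 WNT ligands and 10 Frizzled receptors, 10 secreted inhibitors of the Dickkopf, SFRP, FRZB and WIF type, and the 5 genes Axin2, Lef1, Nkd1, Rnf43 and Znrf3, which are common targets of the pathway or act in its feedback. RNA was sequenced from 3 control samples (Ctrl), whose cells carried an empty CRISPR-Cas9 construct, and 3 Nfkbiz knockout samples (Nfkbiz KO), whose cells carried a construct against Nfkbiz. Both constructs were delivered by lentivirus with puromycin selection, and all cells were grown in the same serum-containing medium. Whether the knockout cells were 1 clone or a pool is not given in the sources used here. The paper lists more than 1 construct against the gene and does not say which was used in D4M-3A cells. Whether both groups carried the same vector is therefore not known. The Ctrl and Nfkbiz KO samples are the only groups, and their comparison asks which of these genes differ in RNA level when Nfkbiz is disrupted.

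WNT proteins are lipid-modified, secreted ligands that bind Frizzled receptors on the cell surface. Together with the co-receptors LRP5 or LRP6 they stabilise β-catenin, which acts with TCF/LEF factors on target genes, whereas other WNT signals act without β-catenin through ROR or RYK receptors and the planar polarity proteins. Several Dickkopf proteins bind LRP5 and LRP6, and SFRP and WIF proteins capture the ligands. In melanoma the pathway is known for its ties to melanocyte fate and to the switch between proliferative and invasive states.

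In Nfkbiz KO, both abundant ligands were lower, and the inhibitor Dkk2 was higher while Sfrp1 was lower. Among the Frizzled receptors, Fzd2 fell and Fzd5 rose. Changes in Fzd6 (lower) and Fzd7 (higher) were smaller, and their calls did not hold under every setting. Among the targets, Axin2 and Lef1 fell and Znrf3 rose. Of the 44 genes, 21 had at least 10 reads in 3 or more samples and were tested with edgeR's quasi-likelihood test on gene reads, with Benjamini-Hochberg adjustment over all 14533 genes that passed this filter. At an adjusted p of 0.05 or less, 11 of the 21 were called, 4 higher and 7 lower in Nfkbiz KO. Among all genes tested, 36.3% were called, 18.0% higher (2621 genes) and 18.2% lower (2648 genes). Called changes were thus common in this comparison, and the share of the WNT genes is to be read against that background. These genes were also chosen with earlier results of these data known, so their share does not measure an excess. On the log2(TPM + 1) scale with limma the split over all genes was 2992 higher and 1323 lower, and that of the WNT genes was 4 higher and 6 lower. The median log2 fold change was -0.16 over the 21 WNT genes and -0.02 over all genes tested. Normalised read counts of the 2 groups did not overlap for 11 of the 21 WNT genes, against 48.2% of all genes tested. A fold change above 2 was reached by Axin2, Sfrp1 and Wnt7b (5.88% of all genes tested passed this threshold with the adjusted p). The study's thresholds, which also ask for a difference above 4, here taken as TPM, were passed by Wnt7b and Sfrp1 (1.78% of all genes tested).

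**Figure D1:**
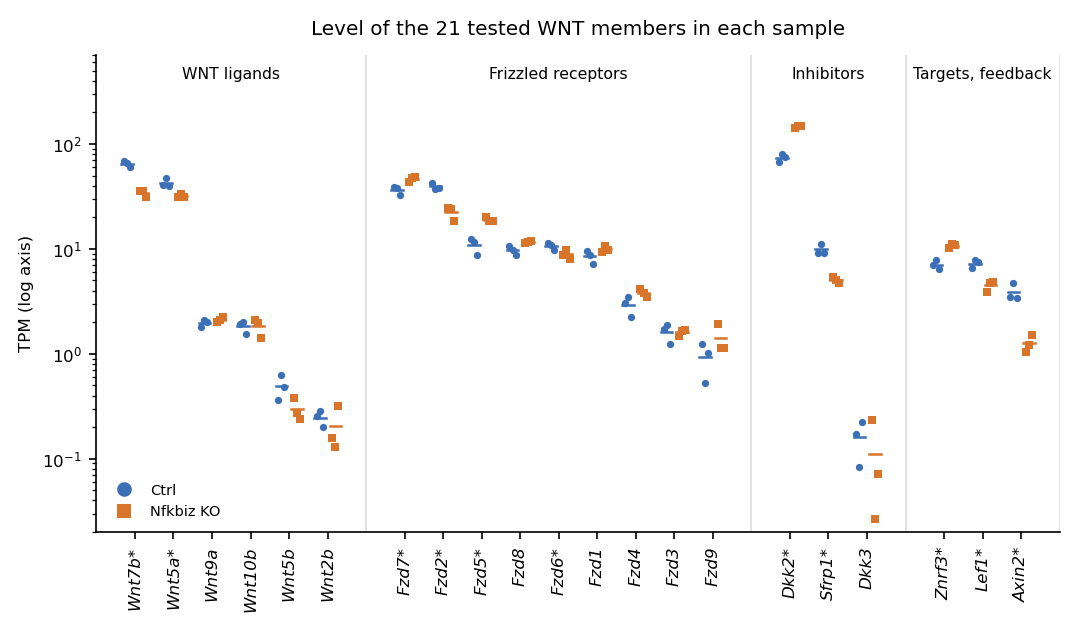
Level of the 21 tested WNT genes in each of the 3 Ctrl (blue circles) and 3 Nfkbiz KO (orange squares) samples, in TPM (transcript abundance scaled for length and depth) on a log axis, with lines at the group means. Genes called at an adjusted p of 0.05 or less carry an asterisk. Dkk2 lies highest in Nfkbiz KO, at 143 to 149 TPM, and Wnt2b, Wnt5b and Dkk3 lie below 1 TPM in every sample.

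**Figure D2:**
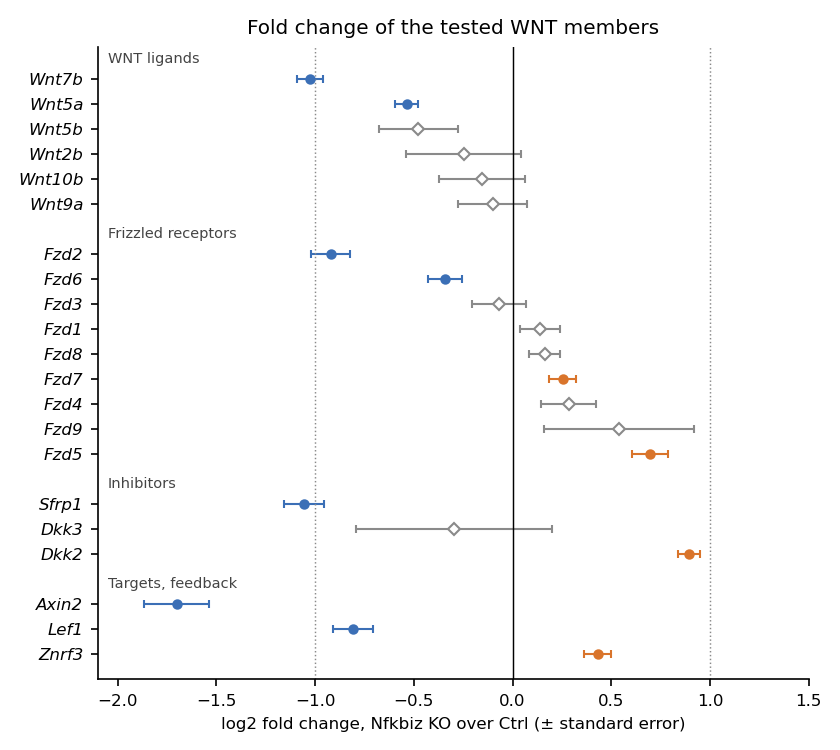
Log2 fold change of each tested WNT gene in Nfkbiz KO over Ctrl from edgeR, with bars of 1 standard error, grouped by role. Filled points were called at an adjusted p of 0.05 or less (blue lower, orange higher), open diamonds were not, and dotted lines mark a fold change of 2. Axin2 has the lowest value, -1.70, and Dkk2 the highest, 0.89.

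The samples had between 32219900 and 44927203 gene reads, so that the 3 reads a count of 0 allows correspond to 0.0668 to 0.0931 CPM, for counting error only. The targeted gene Nfkbiz was lower in every Nfkbiz KO sample, with a log2 fold change of -0.98 ± 0.056 (SE, edgeR adjusted p = 5.6e-08). The labelled cell type was checked with 7 melanocyte genes, of which Sox10 and Tyr had no read in any sample and Dct, Tyrp1 and Mlana had at most 3, while Mitf had 60 to 115 reads and Pmel 18 to 34. Of the 6 fibroblast genes examined, all but Lum were expressed, and their summed level was 622 to 706.5 TPM in Ctrl against 524 to 564 TPM in Nfkbiz KO. Of these, Col1a1, Col1a2 and Dcn were lower, with log2 fold changes of -0.58, -0.21 and -0.79, whereas Pdgfra and Pdgfrb had 0.00 and 0.05 and were not called. The summed level of 4 endothelial genes was 0.550 to 0.827 TPM in Ctrl against 1.32 to 1.85 TPM in Nfkbiz KO, mostly from Cdh5, that of 5 keratinocyte genes was 2.54 to 3.49 TPM in Ctrl against 2.47 to 2.52 TPM in Nfkbiz KO, and 5 immune genes had under 10 reads each in every sample. In Ctrl replicate 1, structural RNAs such as Rpph1 summed to 1195 TPM, against 248 and 309 TPM in the other Ctrl samples and 61.2 to 273 TPM in Nfkbiz KO. The part of these shifts in the results below was not tested. Without Ctrl replicate 1 the number of WNT genes called was 13 of 21, Wnt5b and Fzd8 being added. Over all 14533 genes tested, 4583 were called in that setting, against 5269 with all samples. Nothing in the labels gives a batch. The p-values measure the spread between these samples, and with 3 against 3 a two-sided exact permutation test of a single gene cannot go below 0.1.

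Of the 19 WNT ligands, 6 were tested and 2, Wnt7b and Wnt5a, were called, both lower in Nfkbiz KO. This share, 33.33%, is near the 36.3% called among all genes tested. Wnt7b (chromosome 15, 85419638 to 85466674, minus strand, GRCm39), a ligand known from lung, kidney and brain vessel development, had 68.6, 65.7 and 60.7 TPM in Ctrl replicates 1, 2 and 3 against 35.8, 35.4 and 31.5 TPM in Nfkbiz KO replicates 1, 2 and 3. Each Nfkbiz KO sample lay well under the lowest Ctrl sample, and in such bulk RNA fewer expressing cells and less RNA per cell cannot be told apart. Its mean went from 65.0 ± 3.99 to 34.2 ± 2.38 TPM (± SD of 3 samples each), and from gene reads it was 2.04-fold lower, a log2 fold change of -1.03 ± 0.064 (SE, edgeR adjusted p = 1.2e-07). This value lies close to the threshold of 2 of the study, and Wnt7b fell short of it without Ctrl replicate 1 (-0.98) or without Nfkbiz KO replicate 3 (-0.97). An antisense gene, AU022754, overlaps Wnt7b and had 79, 119 and 95 reads in Ctrl against 29, 44 and 36 reads in Nfkbiz KO. Wnt7b itself had 1677 to 4157 reads. Reads were counted without regard to strand, so reads within the overlap of such a pair cannot be told apart. Exons of 14 of the 21 tested members overlap another annotated gene.

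Wnt5a (chromosome 14, 28226495 to 28249405, plus strand), the ligand most linked to β-catenin-independent signalling and to invasive melanoma cells, had 41.0, 47.3 and 39.6 TPM in Ctrl against 31.1, 33.1 and 31.1 TPM in Nfkbiz KO. The Nfkbiz KO samples were close to each other and all below the Ctrl samples. The log2 fold change was -0.54 ± 0.058 (SE, edgeR adjusted p = 1.5e-05). No other ligand reached 3 TPM in any sample. Wnt5b, the closest relative of Wnt5a, had 0.366, 0.628 and 0.485 TPM in Ctrl against 0.377, 0.271 and 0.239 TPM in Nfkbiz KO, so that the groups overlapped, and its log2 fold change was -0.48 ± 0.20 (SE, edgeR adjusted p = 0.081). Exons of Wnt5b overlap Fbxl14 on the other strand, which had 1472 to 2002 reads. Wnt2b, Wnt9a and Wnt10b had log2 fold changes from -0.25 to -0.10 and were not called. The other 13 ligands had too few reads to be tested, with no read in any sample for Wnt3a, Wnt8b and Wnt9b and at most 5 reads in a sample for Wnt1, Wnt2, Wnt3, Wnt4, Wnt6, Wnt7a, Wnt8a, Wnt10a, Wnt11 and Wnt16.

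Summed over all ligands, the level was 105 to 118 TPM in Ctrl (112 ± 6.87, SD, n = 3) and 66.9 to 73.3 TPM in Nfkbiz KO (70.6 ± 3.30, SD, n = 3). Wnt7b made up 55.6% to 60.1% of this sum in Ctrl and 47.1% to 50.0% in Nfkbiz KO, and Wnt5a 35.9% to 40.0% and 43.4% to 46.5%. Wnt5a thus fell in level while its share of the ligand RNA was higher, since Wnt7b fell further.

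**Figure D3:**
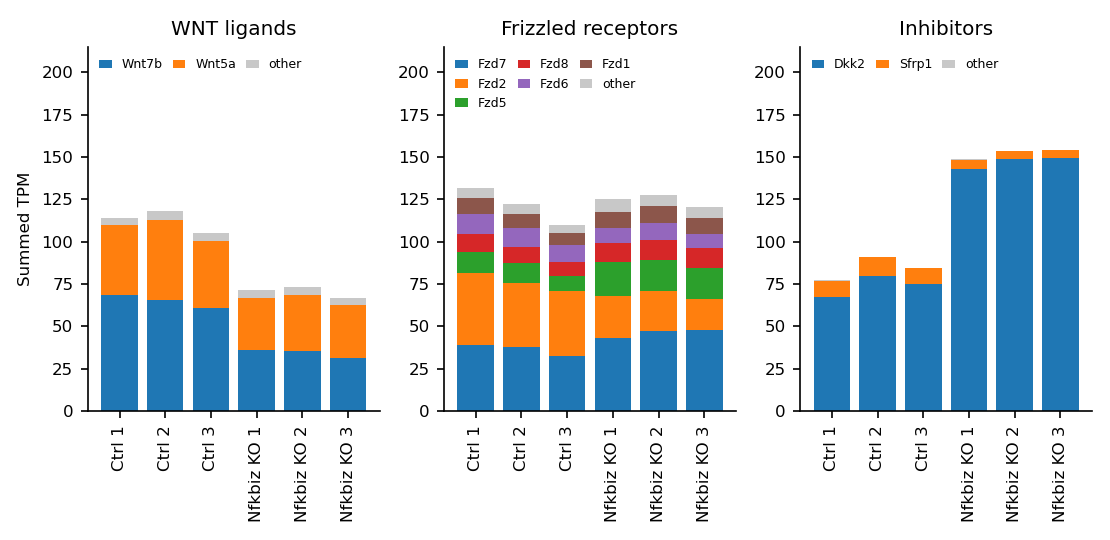
Summed TPM of the ligands, receptors and secreted inhibitors in each of the 6 samples, stacked by gene from 0. The ligand sum is lower in Nfkbiz KO (66.9 to 73.3 TPM) than in Ctrl (105 to 118 TPM), the receptor sums overlap, and the inhibitor sum is higher in Nfkbiz KO (149 to 154 TPM) than in Ctrl (77.1 to 91.2 TPM), almost all of it Dkk2.

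Of the 10 Frizzled receptors, 9 were tested and Fzd10 had no read in any sample. Fzd2 and Fzd6 were lower and Fzd5 and Fzd7 higher in Nfkbiz KO (44.44% called, against 36.3% of all genes tested). Fzd2 (chromosome 11, 102495222 to 102498884, plus strand), a receptor for Wnt5a among other ligands, had 42.8, 37.4 and 38.3 TPM in Ctrl against 24.8, 23.97 and 18.3 TPM in Nfkbiz KO. All Nfkbiz KO samples were below all Ctrl samples, with replicate 3 the lowest. Its log2 fold change was -0.92 ± 0.10 (SE, edgeR adjusted p = 1.6e-05). Fzd5 (chromosome 1, 64769717 to 64776934, minus strand), a receptor needed in eye and gut, moved the opposite way, with 12.4, 11.7 and 8.76 TPM in Ctrl against 19.9, 18.3 and 18.3 TPM in Nfkbiz KO. The lowest Nfkbiz KO sample exceeded the highest Ctrl sample, and the log2 fold change was 0.69 ± 0.092 (SE, edgeR adjusted p = 8.2e-05).

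The other called receptors changed less. Fzd7 (chromosome 1, 59521269 to 59534685, plus strand), a receptor common in stem and tumor cells, had 38.9, 38.0 and 32.4 TPM in Ctrl against 43.1, 47.1 and 48.0 TPM in Nfkbiz KO. The groups were separate, although by a small gap, and the log2 fold change was 0.25 ± 0.067 (SE, edgeR adjusted p = 0.011). This call was lost without Nfkbiz KO replicate 3 (adjusted p = 0.062) and, narrowly, without replicate 2 (adjusted p = 0.050). Fzd6 (chromosome 15, 38869243 to 38901584, plus strand), a receptor known for planar polarity of hair and skin, had 11.4, 10.97 and 9.80 TPM in Ctrl against 8.80, 9.84 and 7.97 TPM in Nfkbiz KO. Its TPM groups overlapped by the small excess of Nfkbiz KO replicate 2 over Ctrl replicate 3. The log2 fold change from gene reads was -0.34 ± 0.086 (SE, edgeR adjusted p = 0.0082), and the call was lost with limma on log2(TPM + 1) (adjusted p = 0.11) and without Nfkbiz KO replicate 3 (adjusted p = 0.052). Fzd1, Fzd3, Fzd4, Fzd8 and Fzd9 were not called, with log2 fold changes from -0.07 for Fzd3 to 0.54 for Fzd9, the latter with a standard error of 0.38.

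The summed receptor level was 110 to 132 TPM in Ctrl, with a mean of 121 TPM, and its range in Nfkbiz KO, 121 to 128 TPM with a mean of 124 TPM, lay inside that of Ctrl. Within it, Fzd2 went from 30.6% to 34.9% of the receptor RNA in Ctrl to 15.2% to 19.8% in Nfkbiz KO. Fzd5 went from 7.98% to 9.54% to 14.3% to 16.0%, and Fzd7 from 29.6% to 31.0% to 34.5% to 39.8%. Fzd2 and Fzd7 were therefore near each other in Ctrl, whereas in Nfkbiz KO Fzd7 was the most abundant receptor in each sample.

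Among the 10 secreted inhibitors, Dkk2 rose and Sfrp1 fell. Dkk2 (chromosome 3, 131790336 to 131886065, plus strand), a Dickkopf protein that binds LRP5 and LRP6, had 67.5, 79.7 and 75.0 TPM in Ctrl against 143, 149 and 149 TPM in Nfkbiz KO. All Nfkbiz KO samples were far above the Ctrl samples. From gene reads it was 1.86-fold higher, a log2 fold change of 0.89 ± 0.056 (SE, edgeR adjusted p = 1.3e-07), and the ratio of mean TPM was 1.99 (147 ± 3.56 over 74.0 ± 6.15, ± SD of 3 samples each). Sfrp1 (chromosome 8, 23901263 to 23939648, plus strand), a decoy with a Frizzled-like domain, had 9.20, 11.2 and 9.17 TPM in Ctrl against 5.45, 5.00 and 4.75 TPM in Nfkbiz KO. The groups were well apart, and it was 2.08-fold lower, a log2 fold change of -1.06 ± 0.10 (SE, edgeR adjusted p = 4.7e-06). Sfrp1 fell short of a fold change of 2 without Ctrl replicate 2 (-0.98). Dkk3 was below 1 TPM and not called, with a log2 fold change of -0.30 and a standard error of 0.50.

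The remaining 7 inhibitors were not tested. Sfrp5 had no read in any sample, and Dkk1, Dkk4, Frzb, Sfrp2, Sfrp4 and Wif1 had at most 7 reads in a sample. Wif1 had 3, 2 and 2 reads in Ctrl against 0 in each Nfkbiz KO sample, which is at the floor of detection in both groups. Dkk2 alone gave 87.4% to 88.8% of the inhibitor RNA in Ctrl and 96.1% to 96.8% in Nfkbiz KO, while Sfrp1 went from 10.9% to 12.3% in Ctrl to 3.08% to 3.66% in Nfkbiz KO.

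Of the 5 targets and feedback genes, Axin2, Lef1 and Znrf3 were tested and all were called, whereas Nkd1 and Rnf43 had no read in any sample. Axin2 (chromosome 11, 108811169 to 108841609, plus strand), a scaffold of the β-catenin destruction complex and a widely used reporter of β-catenin signalling, had 3.51, 4.69 and 3.41 TPM in Ctrl against 1.03, 1.21 and 1.52 TPM in Nfkbiz KO. The lowest Ctrl sample was above the highest Nfkbiz KO sample by a wide margin. Axin2 was 3.25-fold lower, a log2 fold change of -1.70 ± 0.16 (SE, edgeR adjusted p = 5e-06), but the difference between its means of 3.87 ± 0.713 and 1.25 ± 0.250 TPM (± SD of 3 samples each) was below 4 TPM. On the log2(TPM + 1) scale, which understates changes of low genes, the difference was -1.11. Lef1 (chromosome 3, 130903919 to 131018005, plus strand), a DNA-binding partner of β-catenin, had 6.50, 7.79 and 7.45 TPM in Ctrl against 3.89, 4.75 and 4.88 TPM in Nfkbiz KO. The groups did not overlap, and the log2 fold change was -0.81 ± 0.099 (SE, edgeR adjusted p = 4.5e-05). For Lef1, 78.4% of the reads mapped uniquely, and on these alone the log2 fold change was -0.83. Its neighbour Lef1os1, which overlaps it, had 28 to 68 reads per sample.

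Znrf3 (chromosome 11, 5226324 to 5394939, minus strand), a ubiquitin ligase that removes Frizzled receptors from the cell surface, went the other way from Axin2 and Lef1. It had 6.96, 7.87 and 6.42 TPM in Ctrl against 10.1, 11.2 and 10.8 TPM in Nfkbiz KO. The Nfkbiz KO samples were all higher, with a log2 fold change of 0.43 ± 0.069 (SE, edgeR adjusted p = 0.00038). The tested targets therefore did not share 1 direction.

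Promoter sequence was looked up for the 11 called genes and for Sp5, a zinc-finger factor and common WNT target described below, in the RefSeq windows of GRCm38.p6, which run from 250 bases before to 50 bases after a transcription start. Windows were found for 6 of the 12 genes, 9 windows in all, and none for Wnt5a, Wnt7b, Fzd2, Fzd6, Sfrp1 and Znrf3. The 250 bases before the start are printed for the targets that fell most, Axin2 and Sp5, and for the receptor and the inhibitor that rose most, Fzd5 and Dkk2, since these genes moved in opposite directions. Capitals mark TCF/LEF letters (CTTTG followed by any pair of A or T, on either strand) or an NF-κB consensus.
Axin2, chr11:108920099-108920348, plus strand: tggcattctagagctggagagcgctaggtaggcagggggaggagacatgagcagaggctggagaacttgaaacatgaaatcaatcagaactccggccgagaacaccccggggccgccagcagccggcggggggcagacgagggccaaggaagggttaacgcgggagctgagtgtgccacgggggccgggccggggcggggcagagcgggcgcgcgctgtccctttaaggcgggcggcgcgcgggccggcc
Sp5, chr2:70474673-70474922, plus strand: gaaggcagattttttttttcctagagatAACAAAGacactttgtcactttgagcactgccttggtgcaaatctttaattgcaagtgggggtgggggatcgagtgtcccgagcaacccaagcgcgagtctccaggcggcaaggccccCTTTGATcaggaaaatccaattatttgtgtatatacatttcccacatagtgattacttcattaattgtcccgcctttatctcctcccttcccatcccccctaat
Fzd5, chr1:64737751-64738000, minus strand: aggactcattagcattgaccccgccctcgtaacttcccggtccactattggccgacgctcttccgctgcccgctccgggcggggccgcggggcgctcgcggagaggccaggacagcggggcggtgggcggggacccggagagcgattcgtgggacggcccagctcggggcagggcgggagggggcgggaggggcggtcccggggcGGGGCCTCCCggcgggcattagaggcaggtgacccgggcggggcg
Dkk2, chr3:132085042-132085291, plus strand: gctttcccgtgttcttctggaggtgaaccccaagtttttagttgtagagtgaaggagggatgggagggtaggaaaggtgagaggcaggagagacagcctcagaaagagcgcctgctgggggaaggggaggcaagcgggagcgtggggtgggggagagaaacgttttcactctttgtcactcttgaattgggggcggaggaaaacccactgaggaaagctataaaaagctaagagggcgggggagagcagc

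The TCF/LEF letters were in 3 of the 9 windows, against 16.9% of all 32841 windows of this length. They were in the Sp5 window at 2 places, 222 to 216 and 104 to 98 bases before the start, in that of Fzd7 and in 1 of 4 windows of Lef1, but not in these windows of Axin2, Fzd5 and Dkk2. The NF-κB consensus was in 1 window, that of Fzd5, 45 to 36 bases before the start, against 8.46% of all windows. No searched match overlapped one of the other motif. A match is a string of letters and says nothing of binding, and the absence of a match concerns these 300 bases only.

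A further list of 70 WNT pathway genes and targets was examined around these members, of which 55 were tested. At an adjusted p of 0.05 or less 30 were called, 11 higher and 19 lower (54.55%, against 36.3% of all genes tested), a number that was 24 with limma on either TPM scale and without Nfkbiz KO replicate 2 or 3, and none passed the study's thresholds. This list too was chosen with earlier results of these data known, so its share does not measure an excess. The median log2 fold change of its tested genes was -0.11. Sp5 had the lowest value of this list, with 32, 61 and 51 reads in Ctrl against 3, 5 and 3 reads in Nfkbiz KO, or 1.48, 2.69 and 1.84 against 0.159, 0.214 and 0.113 TPM. Like Axin2, it was lower in every Nfkbiz KO sample. Its log2 fold change was -3.69 ± 0.41 (SE, edgeR adjusted p = 2.1e-05), and on log2(TPM + 1) the difference was -1.35. Sp5 passed the read filter through Ctrl alone, and its Nfkbiz KO values of 0.0922, 0.125 and 0.0666 CPM lay near the detection floor. The size of this fold change is thus set in part by depth, and its p-value is to be read with that selection in mind.

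**Figure D4:**
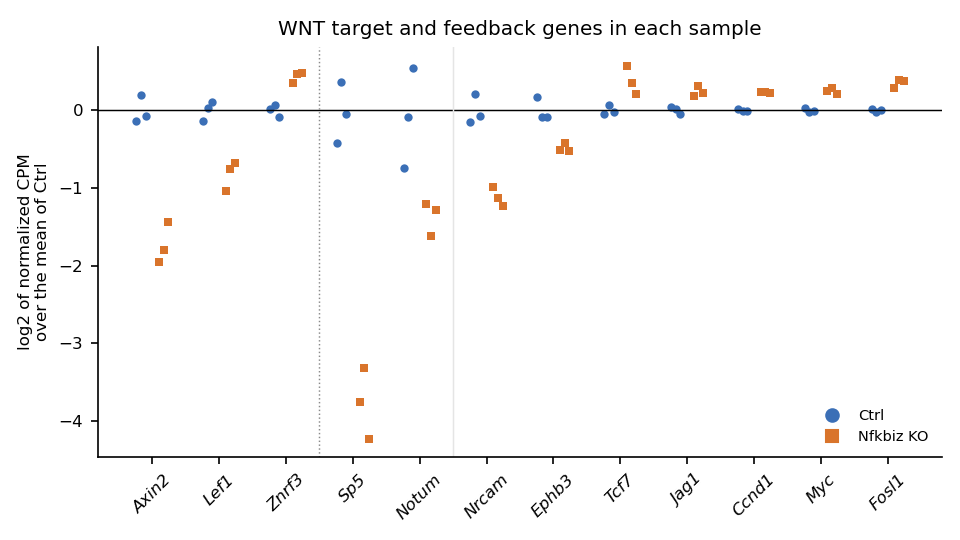
Log2 of normalised CPM (read counts scaled to library size) over the mean of Ctrl for the called WNT targets and feedback genes, with each of the 3 Ctrl (blue circles) and 3 Nfkbiz KO (orange squares) samples as a point and a line at 0. The tested targets and feedback genes of the 44 stand left of the dotted line, and Sp5, Notum and 7 other genes of the further list right of it. Sp5 lies lowest in Nfkbiz KO, where its reads are near the detection floor. Axin2, Lef1, Notum, Nrcam and Ephb3 are also lower, and Znrf3, Tcf7, Jag1, Ccnd1, Myc and Fosl1 are higher.

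Of the 8 further targets tested, 4 were higher and 3 lower (87.5% called). The counts of this and the following small lists are to be read against the 36.3% called among all genes tested. Ccnd1, a cyclin of the G1 phase, and Myc, a growth-promoting transcription factor, rose slightly, with log2 fold changes of 0.23 (edgeR adjusted p = 0.0055) and 0.25 (edgeR adjusted p = 0.0019), whereas Sp5, the adhesion molecule Nrcam and the receptor tyrosine kinase Ephb3 fell. Among 12 nuclear genes, 7 were lower and 2 higher (75.0% called). Here Tcf7l2, a TCF factor, had a log2 fold change of -0.51 (edgeR adjusted p = 0.00029) and Tcf7, its relative, 0.38 (edgeR adjusted p = 0.0068). Of 14 cytoplasmic genes, 2 were higher and 2 lower (28.57% called, below the share of all genes tested). Ctnnb1, which encodes β-catenin, had 395 ± 31.1 TPM in Ctrl against 389 ± 7.33 TPM in Nfkbiz KO (± SD of 3 samples each) and was not called, with a log2 fold change of -0.11 ± 0.055 (SE, edgeR adjusted p = 0.13), but without Ctrl replicate 3 it was called lower, at -0.15 (edgeR adjusted p = 0.0066). Cxxc4, which binds Dishevelled, was lower, from 35, 37 and 35 reads to 14, 10 and 11 reads (log2 fold change -1.62, adjusted p = 0.0026, edgeR). At these low levels the value on log2(TPM + 1) was only -0.19.

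Of the 3 genes of ligand secretion and lipid handling tested, 2 were lower and none was higher. Wls, the carrier that brings WNT proteins to the cell surface, went from 55.9 ± 2.21 to 47.1 ± 0.592 TPM (± SD of 3 samples each), a log2 fold change of -0.34 (edgeR adjusted p = 0.00015). Porcn, the acyltransferase that adds the lipid, had a log2 fold change of -0.52 and was not called (edgeR adjusted p = 0.10), except without Ctrl replicate 1 (-0.70, edgeR adjusted p = 0.037). Notum, an enzyme that removes the lipid, had 19, 33 and 57 reads in Ctrl against 13, 12 and 17 in Nfkbiz KO. It was called (log2 fold change -1.37, adjusted p = 0.014, edgeR), but not without Ctrl replicate 3 (adjusted p = 0.070) or Nfkbiz KO replicate 2 (adjusted p = 0.055), nor with limma on log2(TPM + 1), where the value was -0.52 (adjusted p = 0.068). Of the 4 co-receptors tested, 3 were lower (75.0% called). Lrp5 fell, with a log2 fold change of -0.50 (edgeR adjusted p = 0.00019), whereas Lrp6 had 0.07 ± 0.060 (SE, edgeR adjusted p = 0.41). Ror2 had 0 to 3 reads and was not tested. Of the other extracellular inhibitors, 2 of 8 were tested and 1 was higher, Kremen1, a receptor of Dickkopf proteins, named here after its values were seen, with a log2 fold change of 0.25 (edgeR adjusted p = 0.0055).

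In the R-spondin and LGR list, 1 of 4 tested genes was called (25.0%, against 36.3% of all genes tested). This was Rspo2, a secreted enhancer of WNT signalling, with a log2 fold change of 0.92 (edgeR adjusted p = 0.011), but it was not called without Nfkbiz KO replicate 3 (adjusted p = 0.052) or with limma on log2(TPM + 1), where the value was 0.39 (adjusted p = 0.058). Of 8 planar polarity genes, 1 was higher and 2 were lower (37.5% called, near the share of all genes tested). The higher one was Daam1, a formin that links Dishevelled to actin, with a log2 fold change of 0.57 (edgeR adjusted p = 4.3e-05).

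**Figure D5:**
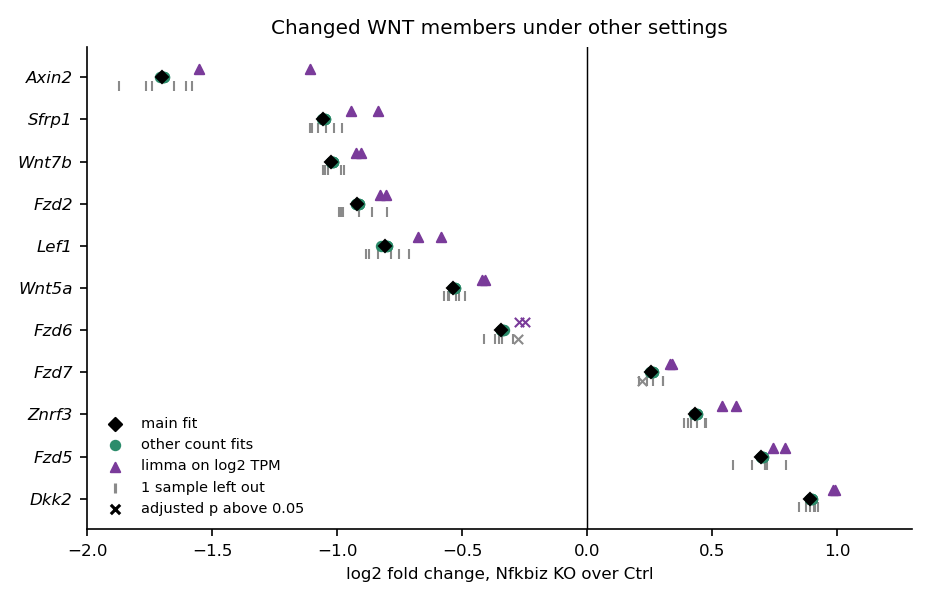
Log2 fold change of each called WNT gene under the main test and the 14 alternative settings, which vary the test, the normalisation, the low-count filter, the reads counted, the scale, the replicate block and the samples left out. The sign of each of the 11 genes is the same under every setting shown, and Axin2 spreads from -1.87 to -1.11.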

How the data were processed

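RNA of 6 D4M-3A samples was sequenced, 3 per group, with groups and replicate numbers taken from the labels. The authors mapped paired-end reads with CLC Genomics Workbench at default settings, to GRCm39 per the methods, whereas the submitters' processing notes name GRCm38. The authors deposited for each gene the total and unique gene reads as raw counts, which include reads outside exons and disregard strand, and TPM from exon reads. Of the gene reads, 96.5% to 96.9% were unique. Coordinates are from GENCODE vM39 on GRCm39, matched by symbol.

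Gene reads were tested with edgeR 4.0.16 in R 4.3.3 (TMM factors 0.978 to 1.011, quasi-likelihood test, genes with at least 10 reads in 3 samples, Benjamini-Hochberg adjustment over 14533 genes). Deposited TPM values served as levels, and the study's difference cut-off of 4, whose unit is not stated, was read as TPM. The members and lists were chosen with earlier results of these data known. Values in every sample are given for called members and for the most abundant ligand, receptor and inhibitor. Of the other pathway genes, those named are the 3 with the largest fold change in each direction among those called, and Lrp5, Lrp6, Ror2, Porcn, Wls, Ctnnb1, Tcf7l2, Ccnd1, Myc and Sp5, while Nrcam, Ephb3, Jag1, Fosl1 and Kremen1 were named after their values were seen.

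No samples within a group were duplicates (chi-square per degree of freedom 28.2 to 72.4 in Ctrl and 3.53 to 6.29 in Nfkbiz KO). The test was also run on simulated counts, with 14330 genes tested. On the log2 scale, 47 of 63 genes changed by 0.5, 55 of 63 by 1 and 69 of 74 by 2 were recovered, with 10 false calls. The simulation changed 200 genes and drew both groups with the same dispersion. In the data, 5269 genes were called, and Ctrl samples differed more among themselves than Nfkbiz KO samples did. The simulated rates therefore do not give the error rates of the real comparison. Alternatives were DESeq2 1.42.0, RLE factors, filterByExpr, no filter beyond 1 read, unique reads, limma 3.58.1 on log2(TPM + 1) and log2(TPM + 0.1), a replicate block and each sample left out in turn. Figures were drawn with matplotlib 3.10.9. The other experiments of the study were not analysed here.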

Additional observations from a re-analysis of the deposited data

How the results depend on the processing

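Of the 11 called WNT genes, 9 kept their call under all 14 alternatives, the exceptions being Fzd6 and Fzd7. Besides the settings named in the results, Fzd6 was lost with limma on log2(TPM + 0.1) (adjusted p = 0.11). Calls were gained for Wnt5b without the low-count filter (adjusted p = 0.044) and without Ctrl replicate 1 (0.049), for Fzd8 without Ctrl replicate 1 (0.044), for Fzd4 without Ctrl replicate 2 (0.044) and, in the further pathway list, for Porcn without Ctrl replicate 1 (0.037) and Ctnnb1 without Ctrl replicate 3 (0.0066). The number of WNT genes called was 10 with limma on either scale and 12 of 37 tested without the filter. It was 9 to 13 with a sample left out (9 without Nfkbiz KO replicate 3, 13 without Ctrl replicate 1) and 11 otherwise. Over all genes, 5269 of 14533 were called in the main fit. With limma at pseudocounts of 1 and 0.1 the numbers were 4315 and 4197 of 14533. Without the filter it was 5638 of 23244. Without Ctrl replicate 1, 2 or 3 it was 4583, 5522 or 5293 of 14533. In the further pathway list 30 genes were called, against 24 with limma on either scale, 31 without the filter and 24 to 31 with a sample left out (24 without Nfkbiz KO replicate 2 or 3).

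The study's thresholds, passed by 2 WNT genes, were passed by 0 with limma on either TPM scale and by 1 to 2 with a sample left out (1 without Ctrl replicate 1, Ctrl replicate 2 or Nfkbiz KO replicate 3). Over all genes they were passed by 258 in the main fit and by 224 and 255 with limma at pseudocounts of 1 and 0.1. Without Ctrl replicate 1, 2 or 3 the number over all genes was 252, 273 or 254. A fold change above 2, reached by 3 WNT genes, was reached by 1, Axin2, with limma on either scale and by 2 to 3 with a sample left out. Over all genes this was counted in the main fit only (855 genes). The limma fits used TPM, which counts exon reads only and carries no TMM factors, with a pseudocount added. With them the median log2 fold change over all genes was 0.06 and 0.08 at pseudocounts of 1 and 0.1, against -0.02 in the main fit. The part of each difference in these counts was not tested. Among the single-gene values under alternatives, 715 kept direction and call, 41 lost a call, 6 gained one and 7 turned sign, none of the 7 in a called gene. These were Wnt9a (0.068 and 0.10 with limma at pseudocounts of 1 and 0.1), Fzd3 (0.0019 and 0.0094 likewise, and -0.20 to 0.032 with a sample left out), Dkk3 (-0.67 to 0.025) and Wnt10b (-0.27 to 0.0040). The cause was not tested.

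The labels do not say whether same-numbered samples were prepared together. Same-numbered samples deviated from their group means with little relation, at correlations of 0.051, -0.020 and 0.028, which cannot settle whether they were paired. With the replicate block, 11 WNT genes, 30 genes of the further pathway list and 5087 genes in all were called, and 256 passed the study's thresholds, against 258 without it. For genes of a few reads such as Wif1, and for Sp5 in Nfkbiz KO, depth limits what can be said.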
